A study of Mus musculus with 8 samples.

Results

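The mammary lineage transcription factors described here are 10 genes: the ETS-family factors Elf5, Ehf and Elf3, the AP-2 factors Tfap2c and Tfap2a, the p63 gene Trp63, the zinc-finger factors Gata3 and Trps1, the forkhead factor Foxa1 and the HMG-box factor Sox9. They were chosen by name, as regulators of the luminal, alveolar and basal lineages, with earlier results of these data known. They were matched by Ensembl ID to the 53379 genes counted in every library. All 10 passed the filter on low counts that left 15890 genes for testing. Because that filter keeps a gene that is well counted in a single line, passing it does not mean that a factor was detected in every line.

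RNA was sequenced from 4 murine mammary carcinoma lines on the C57BL/6 background, with 2 libraries per line and 8 in all. The lines pB2 and pB3 came from tumours of MMTV-PyMT mice, in which the mouse mammary tumour virus promoter drives the polyoma middle T oncogene in mammary epithelium. The lines Epcam hi and 687g came from MMTV-PyMT-Snail-IRES-YFP reporter mice, which carry the same oncogene. All grew untreated as adherent monolayers, in DMEM/F12 medium that held 5% adult bovine serum. Each condition is therefore a single line, so a difference between lines cannot be told apart from a difference between the tumours or mice they came from. The labels do not say whether the replicates of a line were separate cultures, and the p-values then measure only the spread between these libraries, which may be technical.

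The mammary epithelium has an inner luminal layer, whose hormone-sensing cells and milk-secreting alveolar cells depend on different regulators, and an outer basal, myoepithelial layer. GATA3 is required to form and maintain luminal cells, FOXA1 opens chromatin for the oestrogen receptor, and ELF5 drives alveolar differentiation downstream of the prolactin receptor. The p63 protein maintains basal cells, and tumours driven by middle T arise from luminal epithelium.

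The promoters of 3 factors are shown because their genes stand for the different patterns found: Gata3 was lowest where most other factors were highest, and Elf5 and Elf3 each had a line without a single count. The sequences are the bases before the RefSeq start site in GRCm38.p6, 5′ to 3′ on the gene's strand, with bases that the annotation places in an exon left out. Capitals mark matches to the AP-2 motif GCCNNNGGC.
Gata3: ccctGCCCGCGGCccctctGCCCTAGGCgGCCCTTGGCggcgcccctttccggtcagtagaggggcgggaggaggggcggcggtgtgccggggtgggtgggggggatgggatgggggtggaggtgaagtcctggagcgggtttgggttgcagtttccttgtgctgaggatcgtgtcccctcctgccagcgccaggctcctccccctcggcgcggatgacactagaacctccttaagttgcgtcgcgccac
Elf5: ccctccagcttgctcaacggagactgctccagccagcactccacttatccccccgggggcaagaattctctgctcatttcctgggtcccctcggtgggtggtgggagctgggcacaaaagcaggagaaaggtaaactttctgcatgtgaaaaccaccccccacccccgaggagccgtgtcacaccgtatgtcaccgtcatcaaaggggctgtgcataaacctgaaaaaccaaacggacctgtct
Elf3: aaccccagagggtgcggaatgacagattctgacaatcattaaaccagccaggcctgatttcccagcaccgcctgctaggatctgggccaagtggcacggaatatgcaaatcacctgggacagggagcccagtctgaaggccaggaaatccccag

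The Gata3 sequence covers chr2:9878601-9878850 on the minus strand (250 bases). It holds 19 CpG dinucleotides at 70.0% GC, where the median promoter of that length holds 6, and 80.3% of promoters hold fewer. It also holds 3 matches to the AP-2 motif on either strand, a motif found at least once in 13.7% of the 32851 promoters. The Elf5 sequence lies before the second annotated start, at chr2:103423818-103424061 on the plus strand (244 bases), with 8 CpG dinucleotides and 57.0% GC. The Elf3 sequence, at chr1:135258569-135258722 on the minus strand, was cut to 154 bases and holds 3 CpG dinucleotides. Neither the Elf5 nor the Elf3 sequence matched any of the 6 motifs searched on both strands, namely GGAAG for ETS factors (64.1% of promoters of 250 bases), GCCNNNGGC for AP-2, AGATAA for GATA factors (9.99%), TGTTTA for forkhead factors (12%), ACAATG for SOX factors (10.7%) and the TATA box TATAAA (12.4%). A match is a description of the letters only, and the absence of one says nothing about binding. RefSeq entries were matched for 5 of the 10 factors, and those of Foxa1 and Tfap2a are not printed.

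Counts per library totalled 12442730 to 19149916. CPM is the depth-scaled count used here, in which every normalised library total is set to the same size. The normalised totals were 13503155 to 18853777, so 3 counts correspond to 0.159 CPM (pB2 replicate 2) to 0.222 CPM (pB2 replicate 1). Replicates correlated across genes with r of 0.976 to 0.996 on the log2 CPM scale. Krt8 and Krt18, keratins of simple epithelium, were detected in every line, Krt8 at 99.4 to 480 CPM and Krt18 at 212 to 2826 CPM. By contrast Epcam and Cdh1, the epithelial adhesion genes, stood at 3.77 and 1.32 CPM in 687g. In the other lines Epcam was at 271 to 1473 CPM and Cdh1 at 51.4 to 488. The mesenchymal genes Vim and Zeb1 were at 2371 and 27.5 CPM in pB3 and at 2862 and 45.5 CPM in 687g, against 14.0 and 0.101 in pB2 and 26.9 and 0.696 in Epcam hi.

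Marker lists of other cell types were read beside the factors, as summed CPM over the whole list. Fibroblast markers (6 of 12 passed the filter) ranged from 68.7 to 88.8 CPM in the pB2 libraries, led by Pdgfra, against 32.7 to 34.7 in pB3, 4.29 to 4.87 in Epcam hi and 16.1 to 21.9 in 687g. Col1a2, Dpt, Lum and Thy1 had 0 counts in pB2. Adipocyte markers (3 of 8) ranged from 19.8 to 21.1 CPM in pB2 and from 23.9 to 29.0 in 687g, and stayed at or under 0.766 in pB3 and Epcam hi, with Adipoq and Lep at 0 in all 4 lines. Leukocyte markers (2 of 13) were at or under 3.74 CPM outside Epcam hi, where Cd68 led a range of 14.6 to 36.4. Endothelial markers (2 of 10) stayed at or under 9.65 CPM, with Cldn5 and Tie1 at 0 in all lines. The fibroblast sum was highest in pB2, as were 7 of the 10 factors, and its part in the differences below was not tested.

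**Figure D1:**
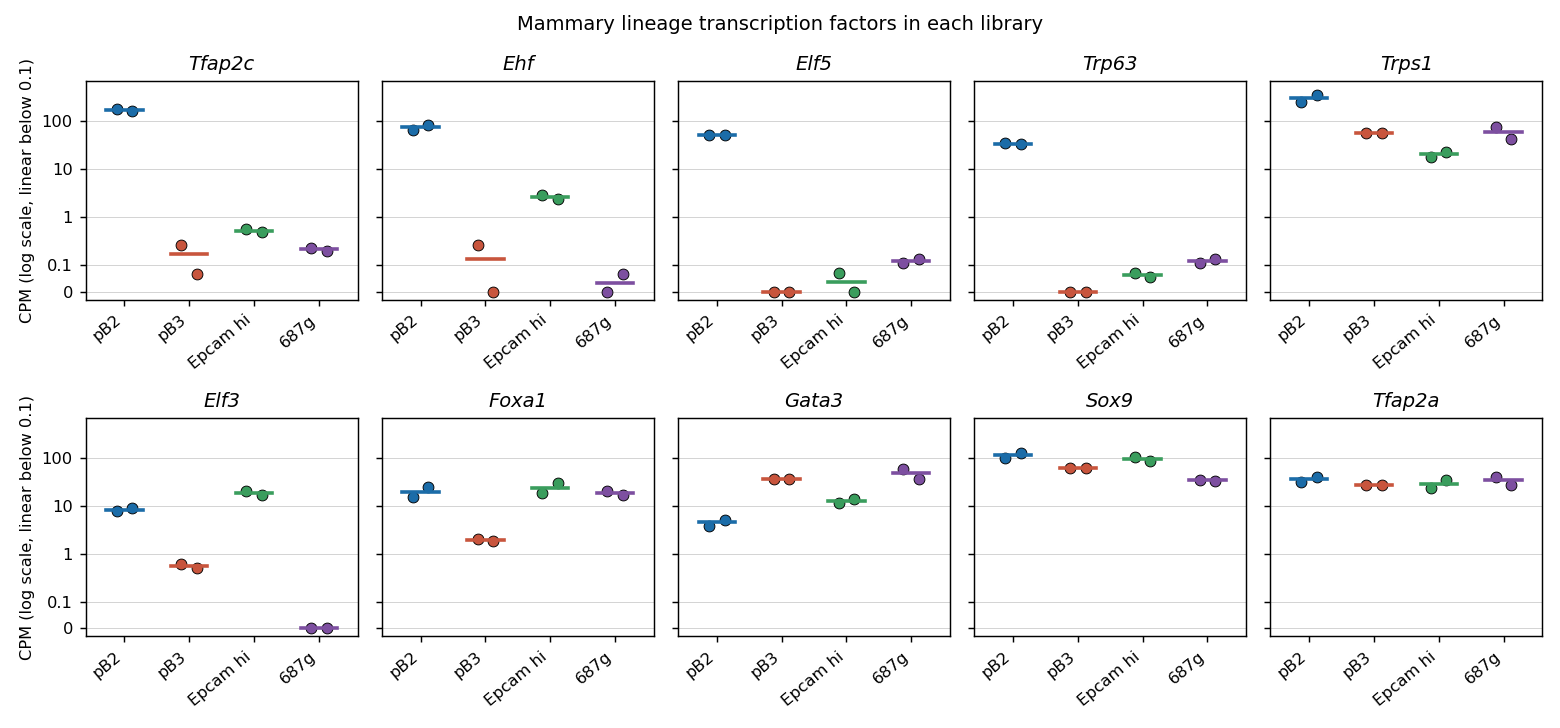
CPM of each factor (vertical axis, log scale that turns linear below 0.1 CPM) in the 2 libraries of each line (points), with the line mean as a bar. Tfap2c, Ehf, Elf5 and Trp63 stand far higher in pB2 than in the other lines, Gata3 is lowest in pB2, and Tfap2a lies within the same range in all lines.

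The 10 factors were not spread evenly over the lines. By mean CPM, 7 were highest in pB2, 2 in Epcam hi (Elf3 and Foxa1), 1 in 687g (Gata3) and 0 in pB3. For Gata3, Foxa1, Tfap2a and Sox9 the highest line was not separated from the next. The share of all tested genes that were highest in each line is not given here. At 1 CPM or more, pB2 had all 10 factors, Epcam hi 7, and pB3 and 687g 5 each. Gata3, Sox9, Tfap2a, Trps1 and Foxa1 were at 1 CPM or more in every line, so these 5 form the set common to all 4 lines. In bulk RNA of this kind, fewer cells making a transcript and less transcript per cell cannot be told apart.

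Elf5, the alveolar ETS factor, was a pB2 gene in these lines. Its pB2 libraries held 51.8 and 51.4 CPM, from 1669 counts. Neither pB3 library held a count, Epcam hi held 1 count (0.0703 and 0 CPM), and 687g held 4 (0.112 and 0.134 CPM). In pB3 the level was thus at least 521-fold lower than in pB2, taking 3 counts over the line as the floor (adjusted p = 1.98e-09, edgeR's quasi-likelihood test with Benjamini-Hochberg adjustment, as for every adjusted p below). The ratio of counts put Epcam hi 1676-fold under pB2, with an exact 95% counting interval of 300.3 to 66223, and the fitted log2 fold change of 687g against pB2 was -8.64 ± 0.40 (SE, adjusted p = 1.61e-09). Among the lines other than pB2 no order could be read, since they held between 0 and 4 counts.

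Ehf, an ETS factor of epithelial cells, lies beside Elf5 and was likewise highest in pB2, at 67.2 and 84.5 CPM. Epcam hi held a low level, 2.88 and 2.41 CPM from 85 counts, and both of its libraries lay above all those of pB3 and 687g. The pB3 libraries held 0.269 and 0 CPM (4 counts) and the 687g libraries 0 and 0.0672 CPM (1 count). Against pB2, the fitted log2 fold change was -4.85 ± 0.32 in Epcam hi (adjusted p = 2.97e-08) and -9.08 ± 0.48 in pB3 (adjusted p = 3.13e-09). The latter rested on which pB3 library was used, since it was -13.26 without replicate 1, which leaves pB3 at 0 counts, and -8.10 without replicate 2, with the call holding in both. In 687g Ehf was 2535-fold under pB2 (exact counting interval 455 to 100169) and 85.8-fold under Epcam hi (15 to 3429, adjusted p = 1.95e-05). Epcam hi also exceeded pB3, with a log2 fold change of pB3 against Epcam hi of -4.24 ± 0.61 (adjusted p = 9.60e-05). That value was -8.40 without pB3 replicate 1, again against 0 counts, and -3.24 without replicate 2. The difference between pB3 and 687g did not pass (adjusted p = 0.385).

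Elf3, the third ETS factor and also a gene of differentiated epithelia, had another order. It was highest in Epcam hi, at 21 and 17.3 CPM, followed by pB2 at 8.0 and 8.91 CPM. The pB3 libraries held 0.605 and 0.518 CPM from 17 counts, and the 687g libraries held 0. All 4 lines were separated from each other: Epcam hi exceeded pB2 with a log2 fold change of 1.17 ± 0.25 (adjusted p = 0.00158). The log2 fold change of pB3 was -3.90 ± 0.34 against pB2 (adjusted p = 9.50e-07) and -5.07 ± 0.34 against Epcam hi (adjusted p = 1.70e-07). In 687g Elf3 was at least 207-fold lower than in Epcam hi (adjusted p = 1.36e-08), at least 93.3-fold lower than in pB2 (adjusted p = 4.08e-08) and at least 6.13-fold lower than in pB3 (adjusted p = 7.62e-04). Elf3 and Ehf were the factors that differed between Epcam hi and 687g by the widest margin, and both were at or below 0.605 CPM in each pB3 and 687g library.

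Tfap2c, which encodes AP-2 gamma, a factor of early mammary epithelium, was abundant in pB2, at 180.3 and 166 CPM. Every other library lay at or below 0.563 CPM. The pB3 libraries held 0.269 and 0.0648 CPM, those of Epcam hi 0.563 and 0.493, and those of 687g 0.223 and 0.202. Log2 fold changes against pB2 were -9.97 ± 0.34 in pB3 (adjusted p = 1.72e-10), -8.35 ± 0.29 in Epcam hi (adjusted p = 1.17e-10) and -9.61 ± 0.33 in 687g (adjusted p = 9.95e-11). Without pB3 replicate 1 the first of these was -11.22, and without replicate 2 it was -9.29. The 3 low lines, with 5, 17 and 7 counts, were not separated from each other. The nearest case, pB3 against Epcam hi, had a log2 fold change of -1.62 ± 0.60 (adjusted p = 0.0520) and passed when library totals replaced the normalisation factors (adjusted p = 0.0416) or when pB3 replicate 1 was left out (adjusted p = 0.0470).

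Its paralog Tfap2a, which encodes AP-2 alpha, did not follow it. The pB2 libraries held 32.5 and 40.4 CPM of Tfap2a, the pB3 libraries 28 and 28.1, the Epcam hi libraries 23.3 and 35.5, and the 687g libraries 41.4 and 27.5. The Epcam hi values overlapped those of every other line. None of the 6 comparisons between lines passed, the widest being pB3 against pB2 with a log2 fold change of -0.38 ± 0.24 (95% interval -0.91 to 0.15, adjusted p = 0.235). The 95% intervals of all 6 lay between -0.91 and 0.82. Fitted on the libraries of pB2 and pB3 alone, the difference passed (log2 fold change -0.37, adjusted p = 0.0319), and so did Epcam hi against pB2 without Epcam hi replicate 2 (-0.73, adjusted p = 0.0285).

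Trp63, the basal regulator, was detected at 35.3 and 33.9 CPM in pB2 and nowhere else above 0.134 CPM. It had 0 counts in pB3, 2 in Epcam hi (0.0703 and 0.0547 CPM) and 4 in 687g (0.112 and 0.134 CPM). Relative to pB2 it was at least 349-fold lower in pB3 (adjusted p = 2.45e-09) and 561-fold lower in Epcam hi (exact counting interval 155 to 4636, adjusted p = 2.37e-09). The log2 fold change of 687g against pB2 was -8.06 ± 0.38 (adjusted p = 2.26e-09). Elf5, an alveolar factor, and Trp63, a basal factor, thus had the same distribution over the lines, with all but a few of their counts in pB2.

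Gata3, the luminal zinc-finger factor, ran the other way. It was lowest in pB2, at 3.92 and 5.20 CPM, and intermediate in Epcam hi, at 11.8 and 13.7 CPM. The pB3 libraries held 37.4 and 37.2 CPM and the 687g libraries 59.5 and 36.9. No library of pB2 or Epcam hi reached the lowest library of the other pair of lines. The log2 fold change of pB3 against pB2 was 3.02 ± 0.26 (adjusted p = 5.30e-07), and that of 687g against pB2 was 3.39 ± 0.27 (adjusted p = 1.28e-07). Epcam hi exceeded pB2 by 1.47 ± 0.26 (adjusted p = 3.41e-04), and 687g exceeded Epcam hi by 1.91 ± 0.24 (adjusted p = 2.73e-05), both on the log2 scale. Between pB3 and Epcam hi the log2 fold change was 1.54 ± 0.24 (adjusted p = 2.45e-04). The lines 687g and pB3 were not separated (log2 fold change 0.37, 95% interval -0.13 to 0.87, adjusted p = 0.283). Without 687g replicate 2 that difference passed, at 0.68 (adjusted p = 0.0466), and without replicate 1 it was -0.01, so it depended on which 687g library was used. The high Gata3 levels thus stood in the lines with high Vim, pB3 and 687g, which the labels place in different mouse models.

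Trps1, an atypical GATA-type repressor, was most abundant in pB2, at 254 and 364 CPM. It was detected in the other lines as well, where the pB3 libraries held 58.0 and 56.6 CPM, the 687g libraries 77.4 and 43.3, and the Epcam hi libraries 18.1 and 23.2. Here Epcam hi was the lowest line, with a log2 fold change of -3.90 ± 0.29 against pB2 (adjusted p = 8.40e-08). Against pB2 the change was -2.43 ± 0.27 in pB3 (adjusted p = 5.33e-06). It was 1.47 ± 0.27 for pB3 against Epcam hi (adjusted p = 8.72e-04) and 1.55 ± 0.27 for 687g against Epcam hi (adjusted p = 4.48e-04). The lines 687g and pB3 were not separated (0.08, 95% interval -0.48 to 0.63, adjusted p = 0.886).

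Foxa1, the forkhead pioneer factor, was low in pB3 alone. The pB3 libraries held 2.02 and 1.88 CPM. Those of pB2 held 15.6 and 24.5, those of Epcam hi 18.9 and 29.9, and those of 687g 21 and 17.1. The libraries of the other lines overlapped each other, and no pair of them was separated: the log2 fold change of 687g against Epcam hi was -0.36 (95% interval -0.93 to 0.21, adjusted p = 0.322). In pB3 the log2 fold change was -3.36 ± 0.32 against pB2 (adjusted p = 1.35e-06) and -3.64 ± 0.32 against Epcam hi (adjusted p = 1.32e-06). The line 687g, with its low Cdh1 and Epcam, therefore had Foxa1 at 19.0 ± 2.77 CPM (SD, n = 2), a level within the range of the pB2 and Epcam hi libraries.

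Sox9, a factor of luminal progenitors and of migrating epithelial cells, had the narrowest span among the factors that changed, with a widest log2 fold change of -1.75 ± 0.19 for 687g against pB2 (adjusted p = 4.26e-06). Its levels were 99.3 and 131 CPM in pB2, 105 and 87.5 in Epcam hi, 63.1 and 63.2 in pB3, and 35.2 and 33.4 in 687g. The log2 fold change of pB3 against pB2 was -0.87 ± 0.19 (adjusted p = 0.00184), and that of 687g against Epcam hi was -1.49 ± 0.19 (adjusted p = 3.38e-05). The line 687g also lay under pB3 (-0.88 ± 0.19, adjusted p = 0.00345). Sox9 in pB3 was under Epcam hi by a log2 fold change of -0.61 ± 0.19 (adjusted p = 0.0266), but this call ended without pB3 replicate 1 (adjusted p = 0.206), pB3 replicate 2 (adjusted p = 0.203) or Epcam hi replicate 1 (adjusted p = 0.136). Epcam hi and pB2 were not separated (-0.26, 95% interval -0.66 to 0.14, adjusted p = 0.259).

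**Figure D2:**
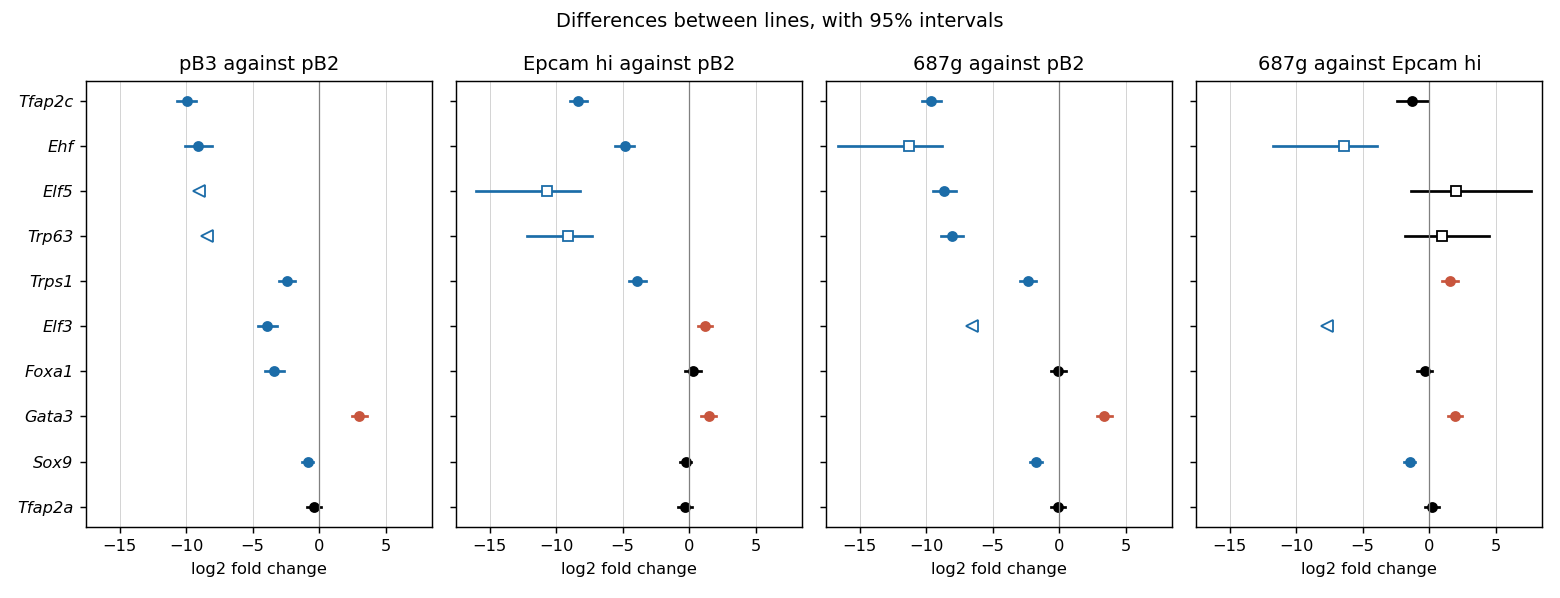
Log2 fold change (horizontal axis) of each factor in 4 comparisons of lines. Filled circles are fitted values and open squares ratios of counts where a line held 1 to 3 counts, each with its 95% interval, open triangles are bounds against a line with 0 counts, and blue marks lower, red higher and black uncalled differences. In the 3 panels against pB2, Gata3 is the factor that is higher in every one, and Tfap2a lies near 0 in all 4 panels.

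Within the pair of lines from MMTV-PyMT mice, 8 of the 10 factors were lower in pB3 than in pB2 (Elf5, Ehf, Elf3, Tfap2c, Trp63, Trps1, Foxa1 and Sox9), 1 was higher (Gata3) and Tfap2a was not called. Of all genes tested, 44.8% were called in this comparison, 21.6% higher and 23.2% lower. The median log2 fold change was -3.63 over the factors and 0.02 over all tested genes. The factors were chosen with earlier results known, so these values are set side by side and not tested. Elf5, Trp63 and Tfap2c held at most 17 counts in any line other than pB2. Their pass of the filter thus rested on pB2, and their direction against pB2 was largely fixed by it. When library totals replaced the normalisation factors, the split of called genes moved from 3427 higher and 3689 lower to 2766 and 4591, and the median over all genes moved to -0.17, while no factor changed its call. The log2 fold changes fitted for the lower factors with counts in both lines ranged from -0.87 for Sox9 to -9.08 for Ehf and -9.97 for Tfap2c, and Trp63 and Elf5, with 0 counts in pB3, were at least 349-fold and 521-fold lower.

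Within the pair from MMTV-PyMT-Snail-IRES-YFP mice, 3 factors were lower in 687g than in Epcam hi (Elf3, Ehf and Sox9), 2 were higher (Gata3 and Trps1) and 5 were not called. Among all genes, 36.4% were called, 18.4% higher and 18.0% lower, beside 5 of 10 factors. The median log2 fold change was -0.07 over the factors and -0.03 over all tested genes. With library totals the latter moved to -0.15. Elf5, Trp63 and Tfap2c were already at or under 0.563 CPM in both Epcam hi libraries, so a still lower level in 687g was hardly measurable. In both pairs of lines Gata3 was called higher, and Elf3, Ehf and Sox9 were called lower. The share of all tested genes with the same call in both pairs is not given here, so this overlap is not read as particular to the factors. Trps1 moved in opposite directions, with -2.43 in the first pair and 1.55 in the second, and Foxa1 passed the test in the first pair only. The difference between the pairs was not tested.

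The line pB2 also differed from both reporter-model lines. In Epcam hi 5 factors were lower (Elf5, Ehf, Tfap2c, Trp63 and Trps1) and 2 higher (Elf3 and Gata3), beside 51.4% of all genes called, 25.8% higher and 25.6% lower. In 687g 7 were lower, the same 5 with Elf3 and Sox9, and Gata3 alone was higher, beside 52.3% of all genes (25.6% higher and 26.7% lower). These split into 4060 higher and 4249 lower, or 3163 and 5289 with library totals. These 2 comparisons and that of pB3 share the pB2 libraries. In them, Elf5, Ehf, Tfap2c and Trp63 each had a fitted log2 fold change of -4.85 or lower, or a fold of counts of at least 349.

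Between pB3 and 687g, the lines with high Vim, 3 factors were called. Foxa1 was higher in 687g (log2 fold change 3.29 ± 0.32, adjusted p = 4.43e-06), Elf3 and Sox9 were lower, and 7 were not called, beside 25.8% of all genes called (12.8% higher and 12.9% lower), a share near that of the factors. For pB3 against Epcam hi the factors gave 2 higher (Gata3 and Trps1), 4 lower (Ehf, Elf3, Foxa1 and Sox9) and 4 not called, beside 29.4% of all genes (14.8% higher and 14.6% lower). In both comparisons Elf5 and Trp63 held at most 4 counts in each line, so an uncalled difference there only says that neither line showed the gene at a level that could be compared.

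Levels of different factors can be set against each other only per length, here as mean CPM per kilobase of exon. In pB2 Tfap2c led with 47.1, followed by Sox9 (27.8), Trps1 (23.1), Ehf (13.6) and Elf5 (8.78), and Gata3 was last at 1.15. In pB3 Sox9 led with 15.3, ahead of Gata3 (9.38), Tfap2a (5.73) and Trps1 (4.28). Epcam hi was also led by Sox9, at 23.2, followed by Elf3 (8.63), Foxa1 (7.32) and Tfap2a (6.00). In 687g Gata3 led with 12.1, ahead of Sox9 (8.30), Tfap2a (7.03) and Foxa1 (5.72). The leading factor by this measure was thus an AP-2 factor in pB2, Sox9 in pB3 and Epcam hi, and Gata3 in 687g. Gata3 moved from the lowest place in pB2 to the highest in 687g.

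**Figure D3:**
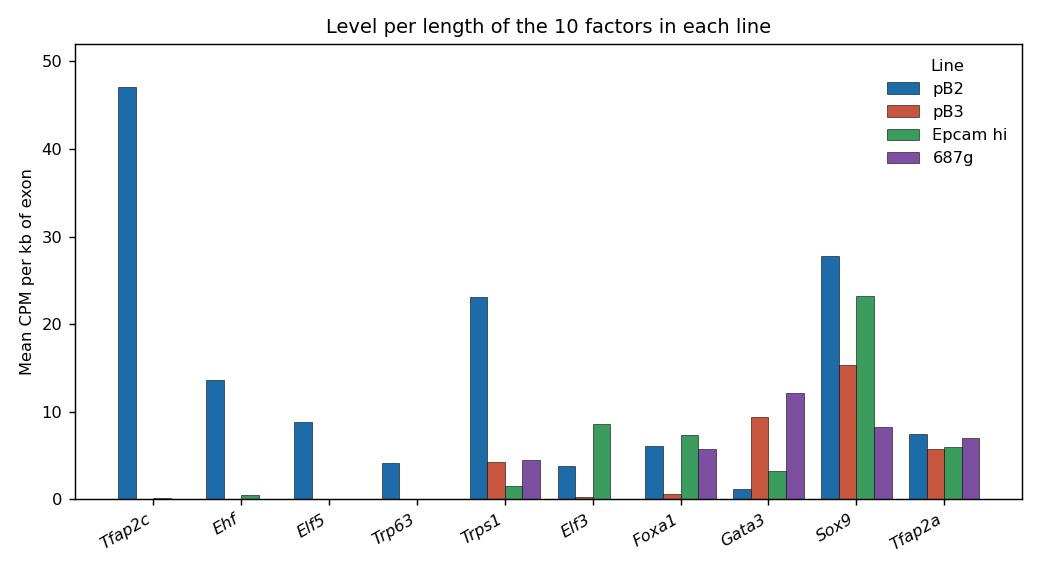
Mean CPM per kilobase of exon (vertical axis, from 0) for each factor, with 1 bar per line (2 libraries each). Tfap2c is the tallest bar in pB2 at 47.1 and is close to 0 in the other lines, Gata3 is tallest in 687g at 12.1, and Sox9 and Tfap2a have a visible bar in every line.

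In the GRCm38 annotation 4 of the 10 genes lie on chromosome 2: Gata3 from 9857078 to 9890034 (minus strand), Ehf from 103263433 to 103303278 (minus), Elf5 from 103411688 to 103450989 (plus) and Tfap2c from 172549593 to 172558622 (plus). The others lie on chromosomes 1 (Elf3, from 135253575 to 135258568, minus), 11 (Sox9, from 112782224 to 112787760, plus), 12 (Foxa1, from 57540628 to 57546916, minus), 13 (Tfap2a, from 40715302 to 40738376, minus), 15 (Trps1, from 50654752 to 50890463, minus) and 16 (Trp63, from 25683763 to 25892102, plus). Each value is a count over all exons of the gene. Antisense genes overlap Gata3, Elf3 and Tfap2a and held 12 to 84 counts each over the 8 libraries, where these factors held 3316, 907 and 4183. Reads were counted by strand, which does not set apart genes on the same strand. Such genes overlap Gata3 (9230102O04Rik, 78 counts), Trps1 (Mir1907, 15 counts) and Trp63 (Gm27005, 8 counts), where Trps1 and Trp63 held 14746 and 1123.

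Ehf and Elf5 are neighbours that point away from each other, 108409 bases apart, and the genes around them were read alongside. The single tested gene between them, BC016548, had the same pattern: pB2 held 18.9 CPM, pB3 0.0336, Epcam hi 0.0274 and 687g 0. The 20 tested genes nearest to Ehf, 10 on each side, include Elf5 and BC016548. Of these 20, 11 were called lower in pB3 than in pB2, 11 lower in Epcam hi and 12 lower in 687g. Among all tested genes, 23.2%, 25.6% and 26.7% were called lower in these comparisons. The median log2 fold changes of the 20 genes were -0.96, -1.06 and -1.08, beside medians of 0.02, 0.06 and 0.03 over all tested genes. The region did not move as a whole. Cd44, a surface receptor of mesenchymal and stem-like cells, was lowest in pB2, at 50.5 CPM, against 545 in 687g, 1365 in pB3 and 2024 in Epcam hi. Caprin1 stood between 405 and 486 CPM in all lines. The neighbours of Tfap2c had medians of -0.06, -0.07 and 0.00 in the same 3 comparisons and those of Trp63 had -0.04, -0.12 and 0.23, where Tfap2c and Trp63 themselves were at or under 0.563 CPM outside pB2. The neighbours of Sox9 had medians of -0.70, -1.21 and -1.21 there, with 10, 14 and 12 of 20 called lower.

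**Figure D4:**
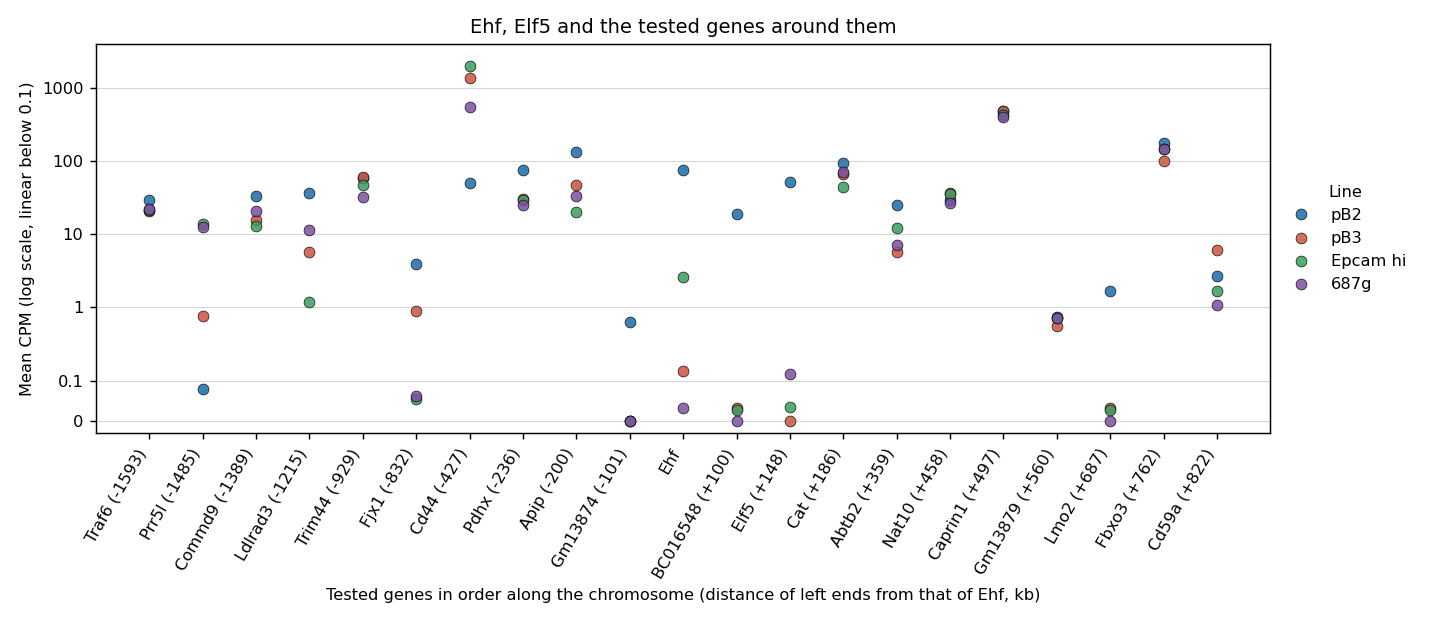
Mean CPM in each line (vertical axis, log scale that turns linear below 0.1) for Ehf, Elf5 and the other tested genes nearest to Ehf, in chromosome order. Distances in kb are between gene midpoints, although the axis label names left ends. Ehf, BC016548 and Elf5 are highest in pB2 and near 0 in pB3 and 687g, whereas Cd44 is lowest in pB2 and Caprin1 lies between 405 and 486 CPM.

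Genes of the luminal lineage did not move as a block with Gata3 or Foxa1. Of 20 listed luminal genes 17 were tested, and in pB3 against pB2 9 were higher and 8 lower, with a median log2 fold change of 0.87. Among all tested genes 44.8% were called in this comparison, 21.6% higher and 23.2% lower. These shares also stand beside the counts of the other lists below. Areg, an EGF-receptor ligand induced by oestrogen, rose from 1.32 CPM in pB2 to 312 in pB3 (log2 fold change 7.92 ± 0.39, adjusted p = 2.07e-09), and Ly6a (Sca-1) and Krt19 rose as well (6.62 and 3.58). Prlr, the prolactin receptor upstream of Elf5, was at 69.7 CPM in pB2 and had 0 counts in pB3, at least 728-fold lower (adjusted p = 2.90e-09). Kit, a receptor of luminal progenitors, fell from 24.9 to 0.0324 CPM, 775-fold by counts (exact counting interval 139 to 30637). Muc1 was also lower, but at 0.800 CPM in pB2 its call ended when a library was left out (adjusted p up to 0.0904).

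In 687g against Epcam hi 7 luminal genes were higher and 7 lower, with a median of -1.06. Among all tested genes 36.4% were called there, 18.4% higher and 18.0% lower, shares that also stand beside the other lists. Wnt4, a progesterone target, rose from 0.625 to 14.2 CPM (log2 fold change 4.51 ± 0.48, adjusted p = 4.94e-06), and Cd24a from 74.6 to 447 CPM. Aldh1a3 rose by a log2 fold change of 2.13 (adjusted p = 0.0129), a call lost with DESeq2 (adjusted p = 0.0567). The tight-junction genes Cldn4 and Cldn3 fell from 939 to 1.68 CPM and from 166 to 0.917 CPM, with log2 fold changes of -9.09 ± 0.37 (-9.73 without 687g replicate 1) and -7.49 ± 0.26, and Ly6a fell from 1087 to 28.5 CPM.

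Alveolar and milk genes gave 10 tested of 20, since 10 of the listed genes, with Csn2, Wap and Lalba among them, did not pass the filter. In pB3 against pB2 5 were lower and 2 higher (median -0.87). The secreted proteins Lcn2 and Wfdc18 fell from 1426 to 1.39 CPM and from 657 to 0.765 CPM, with log2 fold changes of -10.00 ± 0.38 and -9.74 ± 0.33 (-10.48 for Wfdc18 without pB3 replicate 1). The casein gene Csn1s1 had 3.77 CPM in pB2 and 0 counts in pB3, at least 39.0-fold lower (adjusted p = 3.01e-05). Another casein gene, Csn3, rose from 66.1 to 198 CPM (log2 fold change 1.58 ± 0.32, adjusted p = 0.00120). Of these casein genes only Csn1s1 thus shared the direction of Elf5 in pB3 against pB2. In Epcam hi and 687g Csn3 was at 9.52 and 2.63 CPM, under its level in pB2, as Elf5 was. In 687g against Epcam hi 3 were higher (Xdh, Lipa and Mfge8), 3 lower (Btn1a1, Csn3 and Plin2) and 4 not called. Xdh, an enzyme gene of milk fat globules, rose from 0.567 to 29.6 CPM, a log2 fold change of 5.78 ± 0.44 that was 7.03 without Epcam hi replicate 1 and 5.09 without replicate 2. Btn1a1, another gene of milk fat secretion, fell from 15.5 to 0.503 CPM. The calls of Mfge8 and Plin2 were lost when only the 2 lines were fitted (adjusted p = 0.0888 and 0.137).

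Basal and myoepithelial genes gave 13 tested of 20, with Krt5, Acta2 and Myh11 among those that did not pass the filter. In pB3 against pB2 7 were higher and 4 lower, with a median of 1.17. Trp63 was highest in pB2 and at 0 counts in pB3. The basal keratin gene Krt14 was likewise highest in pB2, at 205 CPM, and stood at 0.453 CPM in 687g, 2.55 in Epcam hi and 14.7 in pB3. Its log2 fold change of pB3 against pB2 was -3.80 ± 0.20 (adjusted p = 3.20e-09). Pdpn and the cytolinker gene Dst moved up, Pdpn from 0.0901 to 27.0 CPM (291-fold by counts, exact counting interval 99.2 to 1414) and Dst from 39.2 to 389 CPM. In 687g against Epcam hi 7 were lower and 0 higher by edgeR's quasi-likelihood test, and 0 were higher by DESeq2 and by limma-voom. At an unadjusted p under 0.05, 3 were higher. Mylk, a kinase gene of contractile cells, fell 13.7-fold by counts in pB3 against pB2 (exact counting interval 4.4 to 69.2). Krt15 was at 0.381 CPM in pB2 and its lower call in pB3 (adjusted p = 0.0207) was lost with DESeq2 (adjusted p = 0.105). The laminin gene Lama3 rose from 0.614 CPM in pB2 to 17.7 in pB3 (log2 fold change 4.82 ± 0.35, adjusted p = 8.49e-08). In 687g against Epcam hi it fell from 545 to 1.26 CPM, a change of -8.71 ± 0.34 on the log2 scale (-9.62 without 687g replicate 1). Perp, a p63 target in desmosomes, fell from 799.5 CPM in Epcam hi to 56.3 in 687g. In Epcam hi, where Trp63 had 2 counts, Lama3 and Perp thus stood at 545 and 799.5 CPM. Krt14 and Mylk were highest in pB2, as Trp63 was. Any part of Trp63 in the levels of these genes was not tested.

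Of 32 other regulators of mammary lineages 28 were tested. In pB3 against pB2 10 were higher and 12 lower (median -0.05), and in 687g against Epcam hi 12 were higher and 5 lower (median 0.72). Pgr, the progesterone receptor gene, fell from 4.04 CPM in pB2 to 0 counts in pB3 (at least 40.6-fold). Esr1, the oestrogen receptor gene that FOXA1 serves, lay between 3.54 CPM (pB2) and 6.73 CPM (Epcam hi). Id4 and Gata2 were higher in pB3 than in pB2, at 28.3 against 0.588 CPM and 4.12 against 0.0530 CPM. The Notch target Hey1 was highest in pB2 (112 CPM), followed by 687g (17.6 CPM), and stood at 0.265 and 0.133 CPM in pB3 and Epcam hi. Bcl11a, a regulator of progenitors, had 11.6 CPM in pB2 and at most 0.0972 in the other lines. In 687g Tbx2 stood at 9.08 CPM where Epcam hi had 0 counts, at least 100.04-fold higher (adjusted p = 2.33e-06), while Notch1 fell from 35.8 to 1.22 CPM and Myb from 3.06 to 0.0336 CPM (103-fold by counts, exact counting interval 18.1 to 4107).

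Paralogs of the factors were read for levels in the same lines. Of 18 listed, 10 passed the filter and 7 reached 5 CPM in a line, while the other 11 stayed at or under 4.59 CPM. Gata4 was at 29.7 and 16.2 CPM in 687g and at 2.67 and 2.92 CPM in pB2, against at most 0.324 CPM in any pB3 or Epcam hi library. Gata6 was a pB3 gene, at 18.4 and 17.8 CPM, with at most 1.80 CPM in any other library. Each of the lines with high Gata3 thus had another GATA factor at 16.2 CPM or more in both libraries, Gata6 in pB3 and Gata4 in 687g. At a lower level these lines also shared Gata2, at 4.12 CPM in pB3 and 4.59 in 687g. It was at 0.0530 CPM in pB2 and 0.0547 in Epcam hi. Tfap2b was at 36.4 ± 3.90 CPM in pB3 and 24.8 ± 8.71 in 687g (SD, n = 2), where Tfap2c was near 0, and at 13.6 ± 2.51 in pB2 and 0.852 ± 0.111 in Epcam hi. Among the ETS genes Elf4 was lowest in pB2, at 3.51 CPM against 22.9 to 38.1 in the other lines, and Elf1 and Elf2 stood between 62.9 and 100.5 CPM in all 4. Trp53, the paralog of Trp63, lay between 67.3 and 98.0 CPM.

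The genes whose levels ran most like each factor over the 8 libraries were found among 10293 tested genes of at least 10 CPM in a line, by Pearson r on log2 CPM. Since the 8 points are 4 lines with 2 libraries each, these r values describe the order of 4 lines and have no test. Elf5 and Trp63 were most like each other (r = 0.999), and Prlr came next for both (0.997 and 0.998). Tmprss13 and Azgp1 were most like Tfap2c (0.998 each), Kank1 and Yod1 most like Ehf (0.995 and 0.993), and Map7 and Epb41l5 most like Elf3 (0.996 and 0.993). Gata3 ran with Wwtr1 and Csgalnact1 (0.993 each). Wwtr1, which encodes the Hippo-pathway coactivator TAZ, had 73.7 CPM in pB2, 118 in Epcam hi, 215 in pB3 and 258 in 687g. Trps1 ran with the lipid-synthesis genes Srebf1 and Fads1 (0.991 and 0.99), Sox9 with Shkbp1 and Plcg2 (0.994 and 0.988), and Foxa1 with Fam102a and Gm13230 (0.99 and 0.976). Tfap2a had Lemd3 and Man1a2 nearest (0.962 and 0.943). An r of at least 0.95 was reached by 351 genes for Elf5 and for Trp63 and 341 for Tfap2c, and by 10 for Foxa1 and 1 for Tfap2a.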

How the data were processed

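RNeasy extracts went into KAPA mRNA HyperPrep libraries, per the labels' protocols. Single-end reads were mapped by the authors to GRCm38 (mm10) using STAR 2.6.1a and an Ensembl annotation, then counted per gene and by strand using featureCounts, per the series' design text and the submitters' processing notes. The featureCounts version and its treatment of multi-mapped reads are not given in the sources used here. The deposited files hold raw counts per gene as whole numbers, 1 file per library, and no row lacked a gene. Total counts per library were 12442730 to 19149916.

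Symbols, positions and exon lengths came from GENCODE M21, which named 53274 of the 53379 gene IDs. The test was that of edgeR 4.0.16 (R 4.3.3): filterByExpr by line (15890 genes kept), TMM factors, and 1 quasi-likelihood fit over the 8 libraries, with a coefficient for each line. F tests were two-sided, with Benjamini-Hochberg adjustment over all tested genes and calls were made under 0.05, for the 6 pairs of lines. CPM values use TMM-scaled totals, and ± is the SD of 2 libraries for CPM and the standard error for log2 fold changes. For lines with 0 counts the fold is a bound against 3 counts over the line, where it had 1 to 3 the ratio of counts is given with an exact 95% Poisson interval, and where both had 3 or fewer no fold is given. Such intervals and bounds cover counting error alone. The script was tested on simulated data.

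The factors, the lists of lineage genes, paralogs and markers, and the alternatives were chosen with earlier results of these data known. Named were the 10 factors, the 3 called genes with the largest change in each direction per lineage list for pB3 against pB2 and 687g against Epcam hi, paralogs of at least 5 CPM in a line, and the 2 genes most like each factor. Some genes that this rule selects are not reported here. Other genes named (Krt8, Krt18, Epcam, Cdh1, Vim, Zeb1 and marker genes) belong to fixed marker lists. Cd44, Caprin1, BC016548, P3h2, Masp1, Esr1 and the list genes that did not pass the filter were chosen after their values were seen. Promoter sequences came from RefSeq (GRCm38.p6). Alternatives were DESeq2 1.42.0, limma-voom (limma 3.58.1), library totals, no filter, only the 2 lines compared, a replicate block, and leaving out each library.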

Additional observations from a re-analysis of the deposited data

How the results depend on the processing

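Under 14 other settings, 779 of 803 recomputed differences of the factors kept their direction and side of the threshold, and 9 crossed the threshold. The other 15 changed sign when a library was left out, and none of them was called. Over the libraries left out, log2 fold changes ranged as follows for these uncalled differences. In 687g against Epcam hi they were -0.65 to 0.094 for Foxa1 and -0.081 to 0.65 for Tfap2a. In 687g against pB3 they were -0.0086 to 0.68 for Gata3, -4.18 to 2.31 for Ehf, -0.023 to 0.56 for Tfap2a, -0.32 to 1.61 for Tfap2c and -0.40 to 0.44 for Trps1. Against pB2 they were -0.18 to 0.60 for Foxa1 in Epcam hi, -0.37 to 0.29 for Foxa1 in 687g and -0.40 to 0.17 for Tfap2a in 687g, and in pB3 against Epcam hi -0.34 to 0.34 for Tfap2a. The cause was not tested. In 687g against pB3, limma-voom called 2 factors higher in place of 1, and fitting only the 2 lines called 1 lower in place of 2, with Elf3 no longer passing the filter. Without a filter, 2 basal genes were higher in 687g than in Epcam hi, in place of 0.

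With each library left out in turn, genes called ranged from 2402 (without pB3 replicate 2) to 4991 (without Epcam hi replicate 1) in 687g against pB3, and from 2854 (without pB3 replicate 1) to 6103 (without Epcam hi replicate 2) in pB3 against Epcam hi. Factors called higher in 687g than in pB3 ranged from 1 to 2. In 687g against Epcam hi, luminal genes called higher ranged from 4 to 7, basal genes called higher from 0 to 1 and other regulators called lower from 2 to 6. A lone library is assumed to vary like the other lines. With the replicate number as a block, 6995, 5655, 8006, 4020, 8160 and 4541 genes were called, against 7116, 5789, 8172, 4093, 8309 and 4666 without it, and no factor changed its call. The numbers did not pair the libraries: the replicate differences of 2 lines correlated with r from -0.23 to 0.25. Depth limits what can be said of factors with at most 17 counts in a line.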
